A study of Mus musculus with 23 samples.

Results

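The 10 genes described here belong to the transforming growth factor beta (TGF-beta) and activin pathways. They are the TGF-beta ligand genes Tgfb1, Tgfb2 and Tgfb3, the activin subunit genes Inhba and Inhbb, the TGF-beta receptor genes Tgfbr1 and Tgfbr2, the signalling genes Smad3 and Smad7, and Tgfbi, a target gene. They were taken as all probe sets whose platform gene symbol was a member, which gave 26 of the 45101 probe sets, and 22 of the 26 passed the filter on low signals. Each of the 10 genes kept at least 1 probe set, so all of them were among the 12463 genes tested.

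Colon RNA of 23 mice was hybridized to Affymetrix 430 2.0 arrays, 1 for each mouse. The mice were C57BL/6J, a common inbred strain, aged 12 to 14 weeks. The 5 mice of day 0 are labelled normal, with no agent. The others received 3% dextran sodium sulphate (DSS), a polysaccharide that injures the colon epithelium, in the water they drank, and colon was taken after 2, 4 or 6 days of it (6 mice each), always from different animals, so no mouse was followed over time. The comparisons ask how the pathway's transcripts differ between the days, and the 3 comparisons with day 0 share its 5 arrays. Values are the authors' signal intensities on a linear scale, and changes are differences of log2(signal + 16) from a limma fit of all 4 days, with their standard error (SE). A gene passed at a Benjamini-Hochberg adjusted p of 0.05 or less over all genes tested.

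TGF-beta is secreted in a latent complex and has to be released before it can bind. Active ligands of the family bring together type II and type I receptor kinases, the type I receptor phosphorylates Smad2 and Smad3, and these enter the nucleus with Smad4, while Smad7 is induced by the pathway and blocks its receptors. In the gut, TGF-beta restrains T cells and other leukocytes and drives the deposition of matrix by fibroblasts, and activins, dimers of inhibin beta subunits, are made in inflamed and wounded tissue.

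Several array measures differed by day. For beta-actin, the log2 ratio of 3' over 5' probe sets, which rises as RNA degrades or labelling shortens, had means of 0.43 at day 0, 0.46 at day 2, 0.61 at day 4 and 0.51 at day 6, and no array of day 4 or day 6 lay inside the day 0 range. The mean log2 level of the spiked hybridization controls was 11.42, 11.35, 11.02 and 10.90 on those days. Markers of colon epithelium were bright on every array, with sums over 12 genes from 143400 to 202100. RNA of neighbouring tissue was present too, and 4 arrays stood apart. Day 2 mouse 6 and day 6 mouse 1 had the highest sums of 4 pancreatic genes (110600 and 29430), and day 2 mouse 8 and day 4 mouse 8 had the lowest sums of 12 squamous genes (851 and 1068). Without these 4 arrays, 2 of the members' calls changed, as given below for Tgfb1 and Smad3. In RNA of whole tissue, fewer cells of a type and less RNA per cell cannot be told apart.

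No member passed against day 0 after 2 days, and 7 of the 10 did after 6 days. At day 6 the activin subunit genes Inhba and Inhbb, the receptor genes Tgfbr1 and Tgfbr2, Smad3 and Tgfbi were higher than at day 0, and Smad7, the inhibitor, was lower. At day 4 Tgfbr1, Tgfbr2 and Tgfbi were already higher and Smad7 lower. The 3 TGF-beta ligand genes did not pass against day 0 on any day.

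The counts stand beside those of all genes as follows. Against day 0, 0 members passed at day 2 with limma, where 0.016% of all genes were higher and 0.0642% lower. An unadjusted p under 0.05 was found for 2 members (Inhbb and Smad7) and for 1600 of all 12463 genes. At day 4, 3 members were higher, against 12.1% of all genes, and 1 was lower, against 4.34%. At day 6, 6 were higher, against 18.1%, and 1 was lower, against 14.4%. The split over all genes depended on the scaling: 2262 genes were higher and 1790 lower at day 6 as deposited, but 1556 and 2381 after the log2 values were centred on each array's median. From day 2 to day 4, 2 members were higher (9.45% of all genes) and 1 lower (4.12%). From day 4 to day 6, 5 members were higher (9.07%) and 0 lower (13.7%). Between day 2 and day 6, 7 were higher (16.8%) and 1 lower (14.2%). The median log2 change of the 10 members against day 0 was 0.02 at day 2, 0.25 at day 4 and 0.51 at day 6, and that of all genes was 0.01, 0.06 and 0.02.

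**Figure D1:**
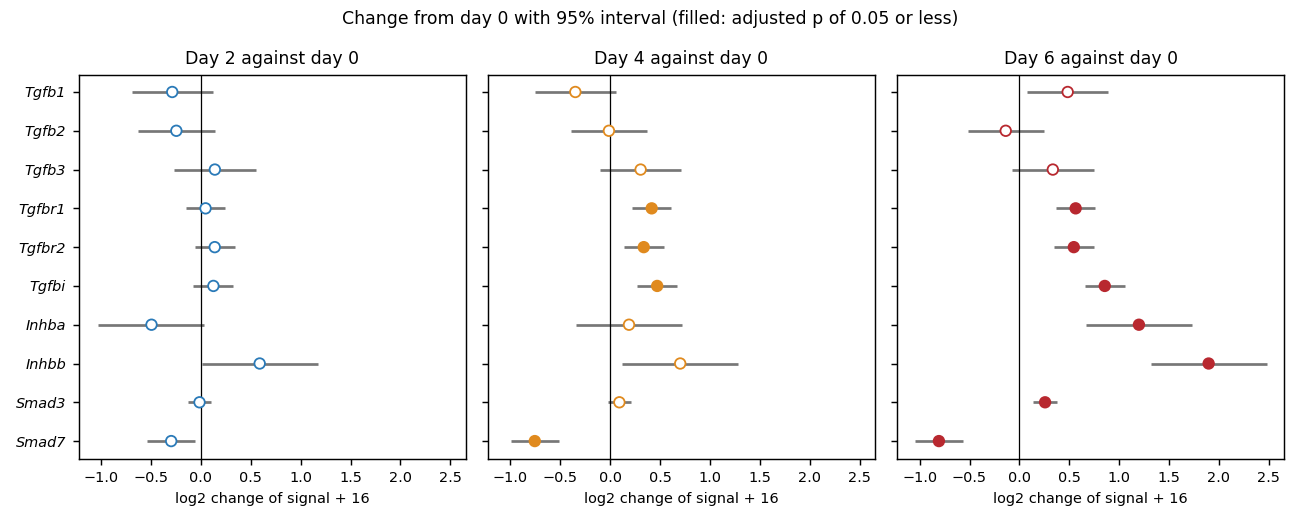
Change of each of the 10 genes from day 0 on the log2(signal + 16) scale at days 2, 4 and 6, with its 95% interval from the limma fit. Points are filled where the adjusted p was 0.05 or less: none at day 2, 4 at day 4 and 7 at day 6, with the largest change in Inhbb (1.90) and the only fall among those that passed at day 6 in Smad7 (-0.81).

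Tgfb1, a widely expressed TGF-beta ligand gene, dipped in its median at days 2 and 4 and was highest at day 6. Its signals at day 0 were 597, 499.9, 556, 513 and 360 on mice 1 to 5. The lowest, median and highest signals were 305, 374 and 596 at day 2, 285, 398 and 499 at day 4, and 453, 749 and 946 at day 6. Of the day 6 arrays 4 of 6 lay above the highest day 0 array, 5 of 6 above the highest day 4 array, and the days overlapped in each case. Tgfb1 rose from day 4 to day 6 by 0.83 ± 0.19 (1.78-fold, adjusted p = 0.00249) and was 1.71-fold higher at day 6 than at day 2 (0.77, adjusted p = 0.00304). The latter did not pass with the hybridization control level as a covariate (0.79, adjusted p = 0.126) or with the squamous and skeletal muscle markers as covariates (0.41, adjusted p = 0.148).

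Against day 0, Tgfb1 did not pass at day 6, with a change of 0.48 ± 0.20 (95% interval 0.08 to 0.89, adjusted p = 0.0627). Day 6 mouse 1, with a signal of 453, and day 6 mouse 3, with 547, were the lowest of that day. Without mouse 1 the change was 0.61 (adjusted p = 0.0166), without mouse 3 it was 0.56 (adjusted p = 0.0398), and without the 4 arrays that stood apart it was 0.61 (adjusted p = 0.0143). At day 4 the change from day 0 was -0.35 ± 0.20 (adjusted p = 0.237). The order of the mean levels was day 4, day 2, day 0 and day 6, and no neighbours in this order differed beyond their spread, while day 6 differed from days 2 and 4.

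Tgfb2 and Tgfb3, which encode the other two TGF-beta ligands, passed in none of the 6 comparisons. Tgfb2 signals at day 0 were 265, 188, 176, 172 and 186. Its lowest, median and highest signals were 128, 171 and 185 at day 2, 143, 181 and 286 at day 4, and 115, 179 and 270.3 at day 6. Mouse 1 stood above the other 4 mice of day 0, and every later day overlapped day 0. The day 6 change of Tgfb2 was -0.14 ± 0.19 (95% interval -0.52 to 0.25, adjusted p = 0.608). Its other kept probe sets did not pass against day 0 either, with day 6 changes of 0.37 (adjusted p = 0.0807, 1450922_a_at) and -0.32 (adjusted p = 0.22, 1423250_a_at) that differ in sign.

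Tgfb3 signals at day 0 were 360, 397, 258, 273 and 262. They ran from 218 to 519 with a median of 361 at day 2, from 275 to 469.8 with a median of 401 at day 4, and from 269.6 to 516 with a median of 392 at day 6. Of the 6 day 6 arrays, 5 lay above the day 0 mean, yet the days overlapped and the change of 0.33 ± 0.20 did not pass (95% interval -0.07 to 0.74, adjusted p = 0.205). The day 6 intervals of Tgfb2 and Tgfb3 together ran from -0.52 to 0.74, and a change inside its interval could not be resolved with this number of arrays.

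The activin subunit genes were the members with the largest changes. Inhba encodes the inhibin beta A subunit, whose homodimer is activin A, and Inhbb the beta B subunit of activin B. Because Inhba and Inhbb moved together at day 6, the 250 bases before their transcription starts are shown, from the RefSeq annotation of GRCm38.p6, as DNA of the gene's own strand. Inhba starts on the plus strand after chr13:16011601-16011850, inside the gene's annotated range. Inhbb starts on the minus strand next to chr1:119422249-119422498. Capitals mark matches on either strand to a TATA box (TATAAA), a GC box (GGGCGG), the Smad box core (CAGAC) and an AP-1 site (TGANTCA), which do not overlap here.
Inhba: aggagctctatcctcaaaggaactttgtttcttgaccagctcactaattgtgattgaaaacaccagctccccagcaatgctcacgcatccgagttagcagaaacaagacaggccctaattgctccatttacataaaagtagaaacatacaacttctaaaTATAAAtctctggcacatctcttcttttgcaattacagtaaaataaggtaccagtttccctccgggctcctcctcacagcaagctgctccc
Inhbb: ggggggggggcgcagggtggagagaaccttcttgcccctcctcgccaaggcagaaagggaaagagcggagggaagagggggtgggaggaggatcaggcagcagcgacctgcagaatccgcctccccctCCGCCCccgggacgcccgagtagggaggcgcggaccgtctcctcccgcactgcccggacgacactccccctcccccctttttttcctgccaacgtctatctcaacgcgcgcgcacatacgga

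The Inhba window held 1 TATA box, 91 bases before the start, and no match to the other 3 motifs. The Inhbb window held 1 GC box, 122 bases before the start, and likewise no other match. Of 32851 windows of the same length, 12.4% held a TATA box, 32.7% a GC box, 42.2% a Smad box core and 6.75% an AP-1 site. The 2 windows shared none of these motifs, and the motifs were chosen after the values were seen.

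Inhba was dim until day 6. Its signals at day 0 were 83.9, 118, 89.9, 70.95 and 116. The lowest, median and highest were 27.9, 67.8 and 109.6 at day 2, 85.8, 102 and 150.0 at day 4, and 160.1, 239 and 336 at day 6. Every day 6 array lay above every array of the other 3 days. The rise from day 0 to day 6 was 1.20 ± 0.26 (2.29-fold, adjusted p = 0.000919), that from day 4 was 1.01 ± 0.24 (adjusted p = 0.00432) and that from day 2 was 1.69 ± 0.24 (adjusted p = 1.66e-05). With the 3' to 5' ratio of the arrays as a covariate, the rise from day 4 was 0.58 and did not pass (adjusted p = 0.126).

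Before day 6 Inhba did not pass. It was -0.50 ± 0.26 at day 2 (adjusted p = 0.423) and 0.19 ± 0.26 at day 4 (adjusted p = 0.659) relative to day 0. Between day 2 and day 4 it changed by 0.68 (adjusted p = 0.0642), and by 0.79 without day 2 mouse 1 (adjusted p = 0.0474) or 0.82 without day 2 mouse 17 (adjusted p = 0.0415). The Inhba probe set was above its array's median on 12 of 23 arrays, so a fold on the log2(signal + 16) scale understates its change. The other Inhba probe set, 1458291_at, never exceeded 12.2 and was not kept.

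Inhbb had the largest change of all members. Its signals at day 0 were 60.9, 50.5, 55.0, 130.1 and 88.2. The lowest, median and highest were 72.9, 121 and 189.7 at day 2, 71.6, 139 and 180.4 at day 4, and 193, 318 and 544 at day 6. As for Inhba, all 6 day 6 arrays lay above all arrays of the other days, whereas days 0, 2 and 4 overlapped. Inhbb rose 3.72-fold from day 0 to day 6 (1.90 ± 0.28, adjusted p = 1.97e-05) and 2.29-fold from day 4 (adjusted p = 0.00238).

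At day 4 the change of Inhbb was 0.70 ± 0.28 (adjusted p = 0.0909), and it passed without day 0 mouse 4 (0.88, adjusted p = 0.0421) or without day 4 mouse 8 (0.85, adjusted p = 0.0411). Day 0 mouse 4 was the highest and day 4 mouse 8 the lowest of its day. The other Inhbb probe set, 1426859_at, did not pass at day 6 (0.27 ± 0.31, adjusted p = 0.555), so the rise of Inhbb was seen in 1 of its 2 probe sets. With the hybridization control level as a covariate, the day 6 changes from day 0 did not pass for Inhba (1.2, adjusted p = 0.122) or Inhbb (1.6, adjusted p = 0.0559).

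**Figure D2:**
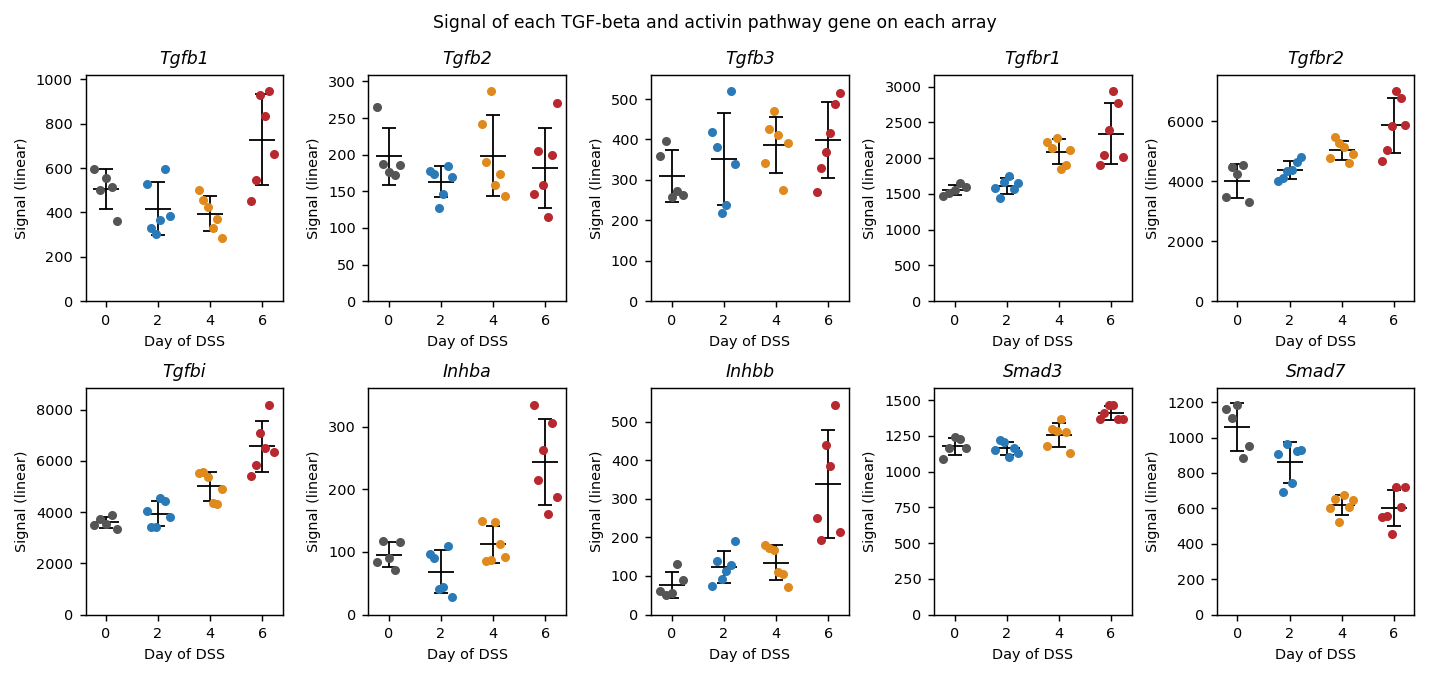
Signal of each gene on a linear scale against day of DSS, with a point for each array (5 at day 0, 6 on each later day) and bars for the mean and SD of a day. Inhba and Inhbb rise at day 6, from at most 150.0 and 189.7 on the earlier arrays to at least 160.1 and 193, Tgfbi runs from a lowest of 3321 at day 0 to a highest of 8195 at day 6, and Smad7 from a highest of 1186 at day 0 to a lowest of 457 at day 6.

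The receptor genes rose earlier. Tgfbr1 encodes the type I receptor kinase of TGF-beta and Tgfbr2 the type II receptor that binds the ligand. Tgfbr1 signals at day 0 were 1469, 1517, 1560, 1659 and 1593. The lowest, median and highest were 1441, 1621 and 1754 at day 2, 1854, 2130 and 2287 at day 4, and 1903, 2215 and 2935 at day 6. All arrays of days 4 and 6 lay above all arrays of days 0 and 2.

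Tgfbr1 was 1.33-fold higher at day 4 than at day 0 (0.42 ± 0.09, adjusted p = 0.00429) and 1.48-fold higher at day 6 (0.56 ± 0.09, adjusted p = 6.75e-05). The change from day 4 to day 6 was 0.15 ± 0.09 and did not pass (adjusted p = 0.246). In the order of its levels, neither days 0 and 2 nor days 4 and 6 differed beyond their spread, and the step lay between days 2 and 4 (0.37 ± 0.09, adjusted p = 0.0115). Its other kept probe sets did not show this step. From day 2 to day 4, 1420893_a_at fell by 0.60 (adjusted p = 0.0374), and 1420894_at was at 0.02 (0.942). The mean over its kept probe sets was -0.069 (adjusted p = 0.707).

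Tgfbr2 signals at day 0 were 3478, 4460, 4248, 4526 and 3297. They ran from 4005 to 4821 with a median of 4352 at day 2, from 4604 to 5461 with a median of 5024 at day 4, and from 4666 to 6993 with a median of 5849 at day 6. Days 4 and 6 lay wholly above day 0, but overlapped each other. Tgfbr2 was 1.26-fold higher at day 4 (0.34 ± 0.10, adjusted p = 0.0198) and 1.46-fold higher at day 6 (0.55 ± 0.10, adjusted p = 0.000142), and no step between neighbouring days passed. Its day 4 call was lost without day 0 mouse 1 (0.29, adjusted p = 0.0626) or day 0 mouse 5 (0.27, adjusted p = 0.0721), the 2 lowest arrays of day 0, and with median centring (0.31, adjusted p = 0.0716).

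Smad3, which carries the signal of TGF-beta and activin receptors to the nucleus, changed least among the members that passed. Its signals at day 0 were 1085, 1164, 1240, 1225 and 1163. They ran from 1101 to 1220 with a median of 1160 at day 2 and from 1129 to 1368 with a median of 1281 at day 4. At day 6 they ran from 1364 to 1468 with a median of 1389, above every array of days 0 and 2. The change at day 6 was 0.26 ± 0.06 (1.2-fold, adjusted p = 0.00127), and at day 4 it was 0.09 ± 0.06 (adjusted p = 0.286).

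These Smad3 calls depended on choices. Median centring took the day 6 change to 0.17 (adjusted p = 0.0906), and the mean over its 3 kept probe sets gave -0.03 (adjusted p = 0.911). The rise from day 4 to day 6 (0.16 ± 0.05, adjusted p = 0.0303) was lost without the 4 arrays that stood apart (0.14, adjusted p = 0.109) and without any of 4 single arrays, day 4 mouse 1 (adjusted p = 0.07), day 4 mouse 8 (0.0889), day 6 mouse 4 (0.0663) and day 6 mouse 7 (0.0641), with the 3' to 5' ratio (0.145, adjusted p = 0.148) and with median centring (0.10, adjusted p = 0.324).

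Smad7, the inhibitory Smad that targets TGF-beta receptors for degradation, was the member that fell. Its signals at day 0 were 1161, 1112, 1186, 882 and 954. The lowest, median and highest were 689.8, 915 and 964 at day 2, 522, 628 and 674 at day 4, and 457, 582 and 722 at day 6. All arrays of days 4 and 6 lay below all arrays of day 0, and those of day 4 also below all of day 2. Smad7 was at 0.592 of its day 0 level at day 4 (-0.76 ± 0.12, adjusted p = 0.000288) and at 0.572 at day 6 (-0.81 ± 0.12, adjusted p = 1.3e-05), with 6 of 6 arrays lower on each day.

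The step of Smad7 from day 2 to day 4 was -0.46 ± 0.11 (adjusted p = 0.0114), and from day 4 to day 6 it was -0.05 ± 0.11 (adjusted p = 0.784). At day 2 its change from day 0 was -0.30 ± 0.12 (95% interval -0.54 to -0.06, adjusted p = 0.259). Its other probe set, 1443771_x_at, fell at day 6 (-0.46 ± 0.13, adjusted p = 0.0109) and not at day 4 (-0.25 ± 0.13, adjusted p = 0.202). From day 2 to day 4 that probe set went the other way (0.13 ± 0.13, adjusted p = 0.53), and the mean of both gave a step of -0.165 that did not pass (adjusted p = 0.237). The day 6 fall of 1443771_x_at did not pass with the 3' to 5' ratio (-0.53, adjusted p = 0.104) or the hybridization control level (-0.65, adjusted p = 0.108). While Smad7, an inhibitor induced by the pathway, was lower, the target gene Tgfbi was higher on the same days.

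Tgfbi encodes a secreted matrix protein named for its induction by TGF-beta and is made by macrophages and fibroblasts among other cells. The 250 bases before its start, on the plus strand at chr13:56609336-56609585 of GRCm38.p6 in RefSeq, are shown because Tgfbi is the target gene of the group and rose on each of its probe sets. Capitals mark 2 matches to the Smad box core (CAGAC, here on the other strand), 239 and 85 bases before the start, and 1 GC box (GGGCGG), 124 bases before it. Windows were found for 8 of the 10 members. No match to the AP-1 site (TGANTCA) was in any of these windows. The Smad box core was also matched in the windows of Tgfb2 (2 matches) and Tgfbr2 (1) and in 1 of the Tgfbr1 windows (1). Of all 32851 windows, 42.2% held it.
Tgfbi: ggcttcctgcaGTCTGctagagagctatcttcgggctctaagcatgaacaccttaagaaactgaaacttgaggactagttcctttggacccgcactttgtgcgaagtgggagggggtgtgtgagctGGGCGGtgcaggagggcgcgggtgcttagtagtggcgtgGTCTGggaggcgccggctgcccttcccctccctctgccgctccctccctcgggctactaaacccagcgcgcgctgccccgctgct

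Tgfbi signals at day 0 were 3492, 3729, 3526, 3899 and 3321. The lowest, median and highest were 3399, 3918 and 4534 at day 2, 4331, 5125 and 5584 at day 4, and 5410, 6421 and 8195 at day 6. Day 4 lay wholly above day 0, and day 6 wholly above days 0 and 2. Tgfbi rose by 0.47 ± 0.10 at day 4 (1.39-fold, adjusted p = 0.0022) and by 0.86 ± 0.10 at day 6 (1.81-fold, adjusted p = 6.62e-07).

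Tgfbi was the member whose later steps both passed, with 0.35 ± 0.09 from day 2 to day 4 (adjusted p = 0.019) and 0.38 ± 0.09 from day 4 to day 6 (adjusted p = 0.00424). The former was lost without day 4 mouse 3 (0.31, adjusted p = 0.0506) or day 4 mouse 4 (0.33, adjusted p = 0.0516). Days 0 and 2 did not differ beyond their spread (0.12 ± 0.10, adjusted p = 0.632). All 4 Tgfbi probe sets rose at day 4, by 0.39 to 0.59, and at day 6, by 0.84 to 1.02, and each passed. At day 4 none of the 4 passed with the 3' to 5' ratio or the hybridization control level as a covariate.

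Probe sets of the same gene gave different answers elsewhere. At day 4, 6 of the 22 kept probe sets were higher than at day 0, among them the 4 of Tgfbi, and 5 were lower. Over all genes 12.1% were higher and 4.34% lower. The shares over all kept probe sets were not counted. Tgfbr1 and Tgfbr2 had probe sets in both directions. The Tgfbr1 probe set used above rose, but 1420893_a_at fell by 0.62 (adjusted p = 0.0298). Similarly, Tgfbr2 1425444_a_at fell by 0.44 (adjusted p = 0.0475). Smad3 1450471_at fell by 1.45 (adjusted p = 0.00261) and Smad3 1450472_s_at by 0.53 (adjusted p = 0.0354).

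At day 6 none of these 4 probe sets passed against day 0. On that day 9 of the 22 probe sets were higher than at day 0 (18.1% of all genes). The 2 that were lower (14.4% of all genes) were both of Smad7. From day 4 to day 6, Tgfbr1 1420893_a_at rose by 0.67 (adjusted p = 0.0156), Tgfbr2 1425444_a_at by 0.58 (adjusted p = 0.0074) and Smad3 1450471_at by 1.28 (adjusted p = 0.0042). In this step 11 of 22 probe sets rose (9.07% of all genes) and 0 fell (13.7%). The mean over the kept probe sets of Tgfbr1 did not pass at day 6 against day 0 (0.14, adjusted p = 0.361). Day 4 was also the day with the highest 3' to 5' ratio of beta-actin (0.61). With the mean of the beta-actin and Gapdh ratios as a covariate, chosen for these probe sets after their values were seen, none of the 4 falls passed. Tgfbr1 1420893_a_at was then at -0.55 (adjusted p = 0.673) and Tgfbr2 1425444_a_at at -0.31 (0.778), close to or somewhat short of their falls without it, whereas Smad3 1450471_at was at -0.31 (0.897) and Smad3 1450472_s_at turned to 0.42 (0.641). In the same fit the 3 rises from day 4 to day 6 were 0.64 (0.0771), 0.535 (0.0557) and 0.89 (0.0928), and none passed.

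**Figure D3:**
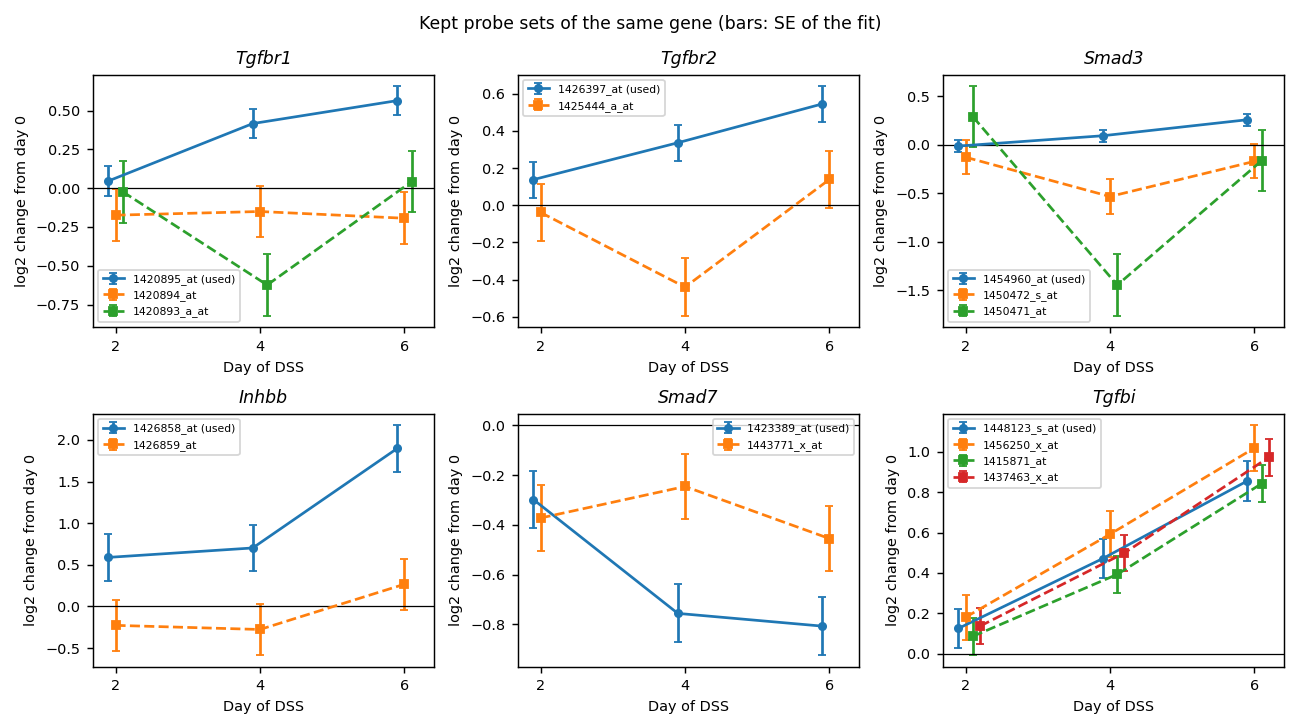
Change from day 0 on the log2(signal + 16) scale at days 2, 4 and 6 for each kept probe set of 6 genes, with the SE of the fit; solid lines are the probe sets used for the gene. All 4 Tgfbi probe sets rise together, whereas at day 4 the Tgfbr1, Tgfbr2 and Smad3 probe sets part, from 0.42 to -0.62, from 0.34 to -0.44 and from 0.09 to -1.45.

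The covariates also bore on the genes' own calls. At day 4, 0 of the 10 members passed against day 0 with the same 3' to 5' ratio in the limma fit, and 1 of all 12463 genes did. The changes were then 0.16 for Tgfbr1 (adjusted p = 0.777), -0.0084 for Tgfbr2 (0.99), 0.35 for Tgfbi (0.513) and -1.06 for Smad7 (0.217). Because the ratios of day 4 and day 0 did not overlap, the part of the ratio and that of the day cannot be told apart in this comparison. The ratios of day 6 did not overlap those of day 0 either (for beta-actin 0.475 to 0.588, against 0.399 to 0.446). The same limit holds for the hybridization control level. It ran from 11.349 to 11.507 at day 0 and from 11.152 to 11.456 at day 2, against at most 11.151 at day 4 and 11.14 at day 6. With the hybridization control level instead, Smad7 was the member that still passed at day 4, and 168 of all genes did. The changes that no longer passed were about as large as before, 0.53 for Tgfbr1 (adjusted p = 0.0602), 0.49 for Tgfbi (0.0976) and 0.29 for Tgfbr2 (0.33).

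The steps from day 2 to day 4 did not pass with either covariate. With the hybridization control level they were 0.46 for Tgfbr1 (adjusted p = 0.0764), 0.36 for Tgfbi (0.154) and -0.49 for Smad7 (0.115), none smaller than without it. With the 3' to 5' ratio they were 0.17 (0.691), 0.25 (0.578) and -0.69 (0.254).

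At day 6, Tgfbi, Smad7, Inhba, Inhbb and Smad3 still passed with the 3' to 5' ratio as a covariate, and Tgfbr1 (0.40, adjusted p = 0.0631) and Tgfbr2 (0.32, adjusted p = 0.136) did not. With the hybridization control level, Tgfbr1, Tgfbi and Smad7 still passed, while Tgfbr2 (0.48, adjusted p = 0.0943) and Smad3 (0.26, adjusted p = 0.13) did not, nor did Inhba and Inhbb as given above. Over all genes, 1706 and 1066 passed in these fits, against 4052 without a covariate. As for day 4, these fits cannot tell the array measures and the day apart.

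Markers of other cell types moved with the same days. At day 6, 18.1% of all genes were higher than at day 0 and 14.4% lower. Of 10 markers of monocytes and macrophages 9 were higher, and their summed signal ran from 17960 to 35270, against 8058 to 12100 at day 0. Of 9 listed neutrophil markers 3 passed the filter, and all 3 were higher (sums from 1925 to 12200, against 156 to 399). A gene bright on the day 6 arrays alone can pass the filter, so this count may follow in part from it. Also higher were 9 of 10 fibroblast markers (40170 to 64840, against 27820 to 36330) and 7 of 10 endothelial markers (3785 to 6517, against 2681 to 3414). Of 12 markers of colon epithelium, 0 were higher and 2 lower. None of the 9 T cell markers passed the filter.

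On day 4, when Tgfbr1, Tgfbr2 and Tgfbi first passed, 12.1% of all genes were higher than at day 0. Among the markers, 5 of the 10 of macrophages, 8 of the 10 of fibroblasts and 9 of the 10 of endothelium were higher. So were 7 of 9 smooth muscle markers (sums from 74710 to 99950, against 57520 to 68100 at day 0) and 6 of 8 markers of enteric neurons and glia (2856 to 4826, against 2217 to 2413). At day 6, 1 of the 9 and 5 of the 8 were. The marker counts were not repeated with the 3' to 5' ratio or the hybridization control level as a covariate. Day 6 mouse 21, which had the highest macrophage and fibroblast sums, also had the highest Tgfb1 (946), Inhbb (544) and Tgfbi (8195) signals. Other members peaked elsewhere: Inhba was highest on day 6 mouse 1 (336), which had the lowest fibroblast sum of that day (40170), and Tgfbr1 (2935) and Tgfbr2 (6993) on day 6 mouse 7. The part of these cell types in the members' changes was not tested. A fit with the marker levels of squamous epithelium and skeletal muscle as covariates was run. Sums of the 12 squamous markers ran from 8213 to 14940 at day 0 and from 24280 to 56270 at day 6. Because these did not overlap, the squamous part and that of the day cannot be told apart in that comparison. The calls lost in this fit were that of Tgfb1 between day 2 and day 6, given above, and that of Smad3 from day 4 to day 6 (0.14, adjusted p = 0.145).

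The genes whose signals most resembled those of each member over the 23 arrays are given as a description. All arrays share the day differences, which enter each value. Tgfbi was most like Ecscr (Pearson r = 0.959), an endothelial gene, Mpeg1 (0.957), a macrophage gene, and the Fc receptor gene Fcgr2b (0.955). Inhbb was most like Lcn2 (0.948), an antimicrobial protein gene, Ifitm1 (0.936) and Serpina3n (0.923), an acute-phase protease inhibitor gene. Inhba was most like Prps1 (0.86), Bst1 (0.856) and Il11 (0.829), a cytokine gene of the interleukin 6 family.

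Tgfbr2 was most like Vim (r = 0.922), which encodes vimentin, the intermediate filament protein of mesenchymal cells, Plpp3 (0.922) and Igfbp7 (0.911). Tgfbr1 was most like Gpm6b (0.939), Cd200 (0.939) and Rtn4 (0.932), and Smad3 like Flot1 (0.87), Ifi27l2a (0.87) and Pdpn (0.868), a fibroblast and lymphatic marker. The genes most like Smad7 were Cyp4f16 (0.878), Cyth2 (0.861) and 5430427M07Rik (0.844). Values were lower for the TGF-beta ligand genes, with a highest r of 0.832 for Tgfb1 (Sirpb1a), 0.771 for Tgfb2 (Fcer2a) and 0.731 for Tgfb3 (Rrn3).

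The other genes of the pathway were grouped by role in lists with 67 entries, of which 53 were tested. At day 2, 0 of the 53 passed against day 0 with limma. An unadjusted p under 0.05 was found for 11 of them and for 1600 of all 12463 genes. At day 4, 11 were higher (12.1% of all genes) and 5 lower (4.34%), and at day 6, 20 were higher (18.1%) and 7 lower (14.4%), the last a share like that of all genes, with a median log2 change of 0.14 at day 4 and 0.10 at day 6. With the 3' to 5' ratio as a covariate, 0 of these genes passed at day 4, and at day 6 9 were higher and 1, Bambi, lower. With the hybridization control level 2 were higher at day 4 and 9 at day 6, and 0 were lower on either day, so the falls at day 6 given below ended there, although each of them kept its direction. Itgav, Ltbp1, Ltbp3, Pmepa1, Tgfbr3, Thbs1 and Tnc were higher at day 6 with each of these covariates. The covariates were tried on these genes after their values were seen, and they cannot be told apart from the day, as given above.

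Of 9 genes tested that hold TGF-beta latent or release it, 6 rose at day 6 (18.1% of all genes) and 1 fell (14.4%). The fall was that of Ltbp4 (-0.46, adjusted p = 0.0253), and it did not pass with the hybridization control level (-0.665, 0.151) or the 3' to 5' ratio (-0.486, 0.198). At day 4, 3 rose (12.1% of all genes) and 1 fell (4.34%). The latter was the integrin gene Itgb6 (-0.73, adjusted p = 0.027), which did not pass at day 6 (0.10, 0.764). Thbs1, which encodes thrombospondin, an activator of latent TGF-beta, had a mean signal of 1019 ± 226 (SD, n = 5) at day 0 and of 3079 ± 1269 (SD, n = 6) on day 6, a rise of 1.5 ± 0.20 (adjusted p = 5.31e-06), and its change at day 4 was 0.23 (adjusted p = 0.459). Nrros, which anchors latent TGF-beta on macrophages and microglia, rose by 1.15 (adjusted p = 0.000125), and Itgb8, whose integrin frees TGF-beta, by 1.03 (adjusted p = 0.000499). With the hybridization control level Nrros did not pass (adjusted p = 0.0955) and Itgb8 did (1.31, 0.0335). With the 3' to 5' ratio neither passed (0.91, 0.0553, for Nrros and 0.70, 0.147, for Itgb8). Ltbp3, a latent TGF-beta binding protein gene, rose by 0.73 at day 4 (adjusted p = 0.000553) and 0.95 at day 6 (adjusted p = 4.05e-06).

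Among 7 other receptor genes, 2 rose and 2 fell at day 6, where 18.1% of all genes rose and 14.4% fell. The co-receptor genes Tgfbr3, which encodes betaglycan, and Eng, which encodes endoglin of endothelial cells, rose by 1.07 (adjusted p = 1.06e-06) and 0.84 (adjusted p = 0.000205). The activin receptor genes Acvr2b and Acvr1b fell by 0.66 (adjusted p = 0.00832) and 0.24 (adjusted p = 0.0459), while Acvr2a (0.03, adjusted p = 0.823) and Acvr1 (0.08, adjusted p = 0.629) did not pass. Neither fall passed with the hybridization control level (-0.40, adjusted p = 0.522, for Acvr2b and -0.30, 0.293, for Acvr1b) or with the 3' to 5' ratio (-0.83, 0.0573, and -0.31, 0.148). Tgfbr3 passed with both covariates and Eng with neither (0.87, adjusted p = 0.0614, and 0.72, 0.0522).

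Of the 5 other Smad genes and partners tested, 0 rose (18.1% of all genes) and 2 fell (14.4%) at day 6. Smad6, the other inhibitory Smad, fell by 0.75 (adjusted p = 0.00403), from a mean of 739.6 ± 161 (SD, n = 5) to 445 ± 128 (SD, n = 6). Smad2 fell by 0.28 (adjusted p = 0.0216), and Smad4, the shared partner, was higher at day 4 (0.25, adjusted p = 0.0432) and not at day 6 (0.17, adjusted p = 0.114). Neither fall passed with the hybridization control level (-1.02, adjusted p = 0.0699, for Smad6 and -0.44, 0.102, for Smad2), nor did either with the 3' to 5' ratio (-0.696, 0.13, and -0.335, 0.134).

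Of 13 inhibitor and feedback genes, 3 rose and 1 fell at day 6, near the shares of all genes (18.1% and 14.4%). Fst, whose product follistatin binds and neutralizes activins, rose by 1.11 (adjusted p = 0.00104), from 244 ± 84 (SD, n = 5) to 565 ± 259.6 (SD, n = 6), and its change at day 4 was 0.15 (adjusted p = 0.705). Fst rose between day 4 and day 6 (0.95, adjusted p = 0.00404). Its rise from day 0 did not pass with the hybridization control level (1.21, adjusted p = 0.0919) or the 3' to 5' ratio (0.59, 0.285), whereas that from day 4 did (0.98, 0.00733, and 1.23, 0.00313). Pmepa1, which binds Smads and dampens the signal, rose by 0.71 (adjusted p = 7e-07) and the ubiquitin ligase gene Nedd4l by 0.44 (adjusted p = 0.000543). The rise of Nedd4l did not pass with the hybridization control level (0.41, adjusted p = 0.123) or the 3' to 5' ratio (0.37, 0.0756). Bambi, a pseudoreceptor gene, fell at day 4 (-0.47, adjusted p = 0.042) and day 6 (-0.63, adjusted p = 0.00343).

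Of 18 TGF-beta target genes, 6 rose (12.1% of all genes) and 2 fell (4.34%) at day 4, and 9 rose (18.1%) and 1 fell (14.4%) at day 6. The fall at day 6 was that of Cdkn2b (-0.60, adjusted p = 0.00532). It did not pass with the hybridization control level (-0.76, adjusted p = 0.108) or the 3' to 5' ratio (-0.57, 0.134). The 8 that did not pass at day 6 included Ccn2 (0.0077, adjusted p = 0.981) and Acta2 (0.028, 0.698). Snai2, a transcription factor gene of mesenchymal cells, rose by 1.41 at day 4 (adjusted p = 0.00227) and 1.86 at day 6 (adjusted p = 3.72e-05). Lox, which crosslinks collagen, rose by 1.61 at day 6 (adjusted p = 3.48e-05), and the matrix gene Tnc by 0.96 (adjusted p = 3.55e-06). At day 6 Snai2 did not pass with the 3' to 5' ratio (1.25, adjusted p = 0.0572), nor Lox with the hybridization control level (1.37, 0.0687). Each passed with the other covariate. Junb fell by 1.22 at day 4 (adjusted p = 0.00153) and was at -0.21 at day 6 (adjusted p = 0.537), after a rise of 1.01 from day 4 (adjusted p = 0.00273). The fibroblast markers given above moved on the same days as these matrix genes, and their part was not tested.

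Of the remaining ligand genes only Lefty1, an antagonist of Nodal signalling, passed the filter. Its change was 0.64 at day 2 (adjusted p = 0.198), 0.62 at day 4 (adjusted p = 0.0538) and -0.15 at day 6 (adjusted p = 0.633), and it fell by 0.77 from day 4 to day 6 (adjusted p = 0.00945). Inha, Inhbc, Inhbe, Nodal, Gdf11 and Lefty2 were too dim to be tested, so among the inhibin and activin subunit genes Inhba and Inhbb were those tested.

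**Figure D4:**
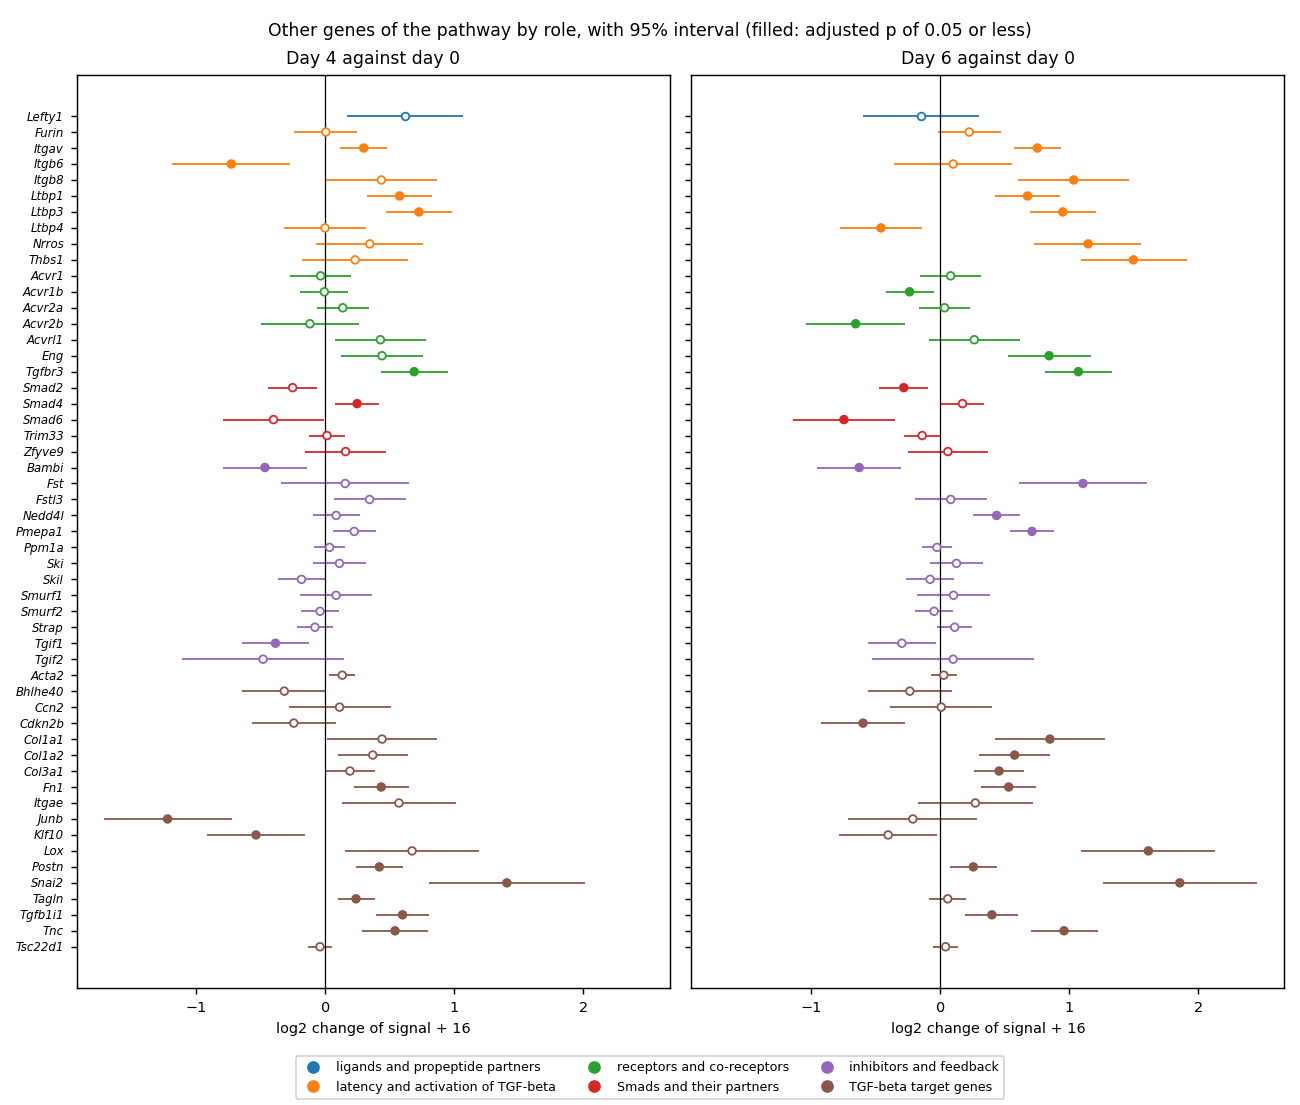
Change from day 0 on the log2(signal + 16) scale, with its 95% interval, for the 53 other pathway genes tested at day 4 (left) and day 6 (right), coloured by role and filled where the adjusted p was 0.05 or less. At day 6, 20 filled points lie to the right of 0, led by Snai2 (1.86), Lox (1.61) and Thbs1 (1.5), and 7 to the left.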

How the data were processed

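Signal intensities of 23 Affymetrix 430 2.0 arrays were used as the authors deposited them, on a linear scale and, per the submitters' processing notes, made with MAS5 (no version is named). The trimmed mean (2% at each end) was 500 on every array, so no further scaling was applied, and a change in total RNA per cell cannot be seen. Probe sets were named from the platform annotation, which may be old. The filter asked for at least 5 arrays above their own median, and the kept probe set with the highest mean stood for its gene. log2(signal + 16) was fitted with limma 3.58.1 in R 4.3.3 (lmFit, eBayes with trend), all 4 days in 1 fit, and each of 6 contrasts was adjusted by Benjamini-Hochberg over all genes (probe sets over all kept probe sets). Tests were two-sided.

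Members, lists and tests were chosen with earlier results of these data known, and the promoter motifs after the values were seen. Named genes were all members, up to 4 genes of each role list that passed with the largest change against day 0, and the 3 genes most correlated with each member. Where no gene of a list passed, those with the lowest p were named. Acvr2a, Acvr1, Itgav, Ltbp1, Ltbp4, Itgb6, Cdkn2b, Ccn2 and Acta2 were named after their values were seen. In simulated data for the day 6 comparison with day 0 (12463 genes), 50.7% of changes of 0.5 (log2) were recovered, 89.6% at 1 and 95.5% at 2, and 6 of 163 calls were of unchanged genes. Only 67, 67 and 66 genes were changed at these sizes, and noise was drawn separately for each gene and array. The real comparison had 4052 calls and array measures that differed by day, so these rates need not hold for it. The number of arrays limits the precision. Alternatives covered the pseudocount, filter, scaling, probe sets, array weights, covariates, the mouse number as a block and leaving out arrays.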

Additional observations from a re-analysis of the deposited data

Results flagged for a closer look

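The Tgfb2 signal of day 0 mouse 1 was 265, apart from the other 4 mice of that day, which lay between 172 and 188. On the log2(signal + 16) scale the gap was 0.802 of the range of the 5 values. Such gaps were looked for in 40 groups of arrays (10 genes on 4 days), and chance gives about 1 in 20.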

How the results depend on the processing

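The 60 gene changes (10 members in 6 comparisons) were refitted under 39 alternatives. Of 2334 values, 2259 kept their call, 54 lost it, 13 gained it and 8 reversed. A change of sign counted as reversed only where the main or the alternative fit passed, so signs also differ among the 2259. For Tgfb2 at day 4 against day 0, the change ran from -0.311 to 0.415 and passed nowhere. Inhba was absent under the stricter filter. Of the 27 calls, 5 held under each alternative that tested the gene (38 for Inhba, 39 for the others): Tgfbi and Smad7 at day 6 against day 0, Tgfbi and Inhba at day 6 against day 2, and Inhbb from day 4 to day 6. In the comparisons of days 4 and 6 with day 0, the 3' to 5' ratio and the hybridization control level could not be told apart from the day. The members that passed from day 2 to day 4 went from 3 to 0 with the hybridization control covariate, the 3' to 5' ratio covariate or the replicate block; with the first, the 3 changes were no smaller. At day 4 against day 0 they went from 4 to 1 and 0 with the former 2 covariates. With the hybridization control they went from 7 to 3 at day 6 against day 0 and from 8 to 3 against day 2. Of the other pathway genes, 2 and 0 passed at day 4 (16 before) and 9 and 10 at day 6 (27 before), a set of alternatives added after seeing the data. Leaving out any 1 array moved no count by over 1.5 times.

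With the mean of a gene's probe sets, changes turned to -0.12 for Tgfbr1 and -0.052 for Tgfbr2 at day 4, to -0.069 for Tgfbr1 from day 2 to day 4, and for Smad3 to -0.63 at day 4 (adjusted p = 0.00575), -0.027 at day 6, -0.68 from day 2 to day 4 (adjusted p = 0.00649) and -0.075 from day 2 to day 6. This average takes in the probe sets that fell at day 4. With the 3' to 5' ratio Tgfbr2 turned to -0.0084 at day 4, and Smad3 probe set 1450472_s_at to 0.42. The cause of the other changes was not tested.

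The replicate block, with mouse numbers, left 2 of 5 members that passed from day 4 to day 6, 6 of 8 from day 2 to day 6, 3 of 4 at day 4 and 7 of 7 at day 6. Of 17 same-numbered pairs 3 had deviations correlated over 0.1 (median r 0.046, highest 0.7), so the numbers were not used as pairs in the main fit. Whether same-numbered mice shared housing or processing cannot be told from this.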

Other observations

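Day 2 mouse 8 and day 4 mouse 8, labelled with the same number on different days, had deviations from their day means that correlated at r = 0.70 over the genes tested, the highest of 17 same-numbered pairs, whose median was 0.046. Genes are not independent replicates. Both arrays had the lowest squamous sums of their days (851 and 1068), and both had Tgfb2 signals of 147 and 143 and Smad3 signals of 1101 and 1129, the latter the lowest of day 2 and of day 4.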
